A study of Mus musculus with 4 samples.

Results

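Sense intronic transcripts are annotated RNAs that lie inside an intron of another gene and run in the same direction as that gene. The count table of mouse embryonic fibroblasts (MEFs) listed 328 genes of this biotype among 55487 genes, and 146 of them had at least 1 count. The 49 described here were those with at least 10 counts summed over all 4 libraries. This sum chose the members, so that they had reads is no finding, and a transcript without reads in one condition could still enter through the other. At the edge of the rule, 4 members had 10 counts (4933413C19Rik, Gm28512, Gm44982 and Gm48027), 2 had 11 and 1 had 12, while 1 transcript left out had 9 counts and 5 had 8.

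The MEFs were wild-type, were prepared from C57BL/6J embryos and were used at passage 2 according to the sample labels. In each of 2 experiments, 1 culture was left untreated (control) and 1 received pigment epithelium-derived factor (PEDF, a secreted glycoprotein) at 100 ng/mL for 24 h. Each experiment had its own embryos, and the labels pair the 2 libraries of an experiment. Polyadenylated RNA was sequenced from directional libraries, and the comparison addressed which transcripts PEDF alters in MEFs.

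An intron is normally removed from a primary transcript in the nucleus and degraded. A read inside an intron can come from a separate gene with its own start, from an unspliced or partly spliced host transcript, or from an excised intron that persists, and counts per gene do not separate these sources. A transcript that ends in a cleavage and polyadenylation site usually carries the hexamer AATAAA, or its variant ATTAAA, shortly before its 3′ end. Some sense intronic transcripts are well known in their own right: Peg13 is an imprinted noncoding RNA, expressed from the paternal chromosome, that sits within Trappc9.

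The annotated 3′ ends are shown for Peg13, the member with the most reads, and for the 5 members that passed an unadjusted p of 0.05 for PEDF against control, because libraries selected for polyadenylated RNA depend on how a transcript ends. Each line gives the last 50 bases of the longest transcript in GENCODE release M21 (GRCm38), 5′ to 3′ on the transcript strand, with AATAAA or ATTAAA in capitals.
Peg13: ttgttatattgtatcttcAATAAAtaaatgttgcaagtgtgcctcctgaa
B930095G15Rik: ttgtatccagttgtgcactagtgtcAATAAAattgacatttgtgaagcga
Gm37963: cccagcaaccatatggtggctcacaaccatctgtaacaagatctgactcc
Gm42664: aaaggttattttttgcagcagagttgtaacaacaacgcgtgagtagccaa
Gm44200: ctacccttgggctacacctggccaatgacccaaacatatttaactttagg
Gm26984: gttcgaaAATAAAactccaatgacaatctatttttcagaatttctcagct
Peg13 and B930095G15Rik, the 2 members with the most reads, carried AATAAA starting 32 and 25 bases from the end (in Peg13 the first of 2 overlapping copies), and Gm26984 carried it 43 bases from the end. Neither hexamer was in these windows of Gm37963, Gm42664 or Gm44200. Over all members, 14 of 49 (28.6%) had AATAAA in this window, against 20.4% of 274 sense intronic transcripts under the minimum, 31.7% of lincRNA genes, 33.5% of antisense genes, 56.7% of protein-coding genes and 34.5% of all genes with a transcript of at least 200 bases. With ATTAAA allowed as well, the share was 36.7% of members and 43.3% of all genes. A run of at least 12 A anywhere in the longest transcript was present in 5 members (10.2%), among them B930095G15Rik (longest run 16) and Gm15708 (13). The share was 9.49% of the sense intronic transcripts under the minimum and 9.18% of protein-coding genes. It was 3.82% of lincRNA genes, 4.96% of antisense genes and 6.34% of all genes. Only the transcript strand was searched, and these letters describe the annotation, not a measured end.

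The libraries held 14722848 and 18144640 counts for control MEFs and 15361948 and 17787193 for PEDF-treated MEFs, in experiments 1 and 2. All 10 listed fibroblast markers had a mean above 1 TPM (a level scaled for gene length and library size), summing to 16780 and 20110 TPM in control and 14890 and 16910 TPM in PEDF-treated MEFs, lower with PEDF in both experiments. A mean above 1 TPM was also reached by 5 of 6 markers each of macrophages, epithelium and skeletal muscle, and by 2 of 6 of endothelium. The summed markers of other cell types were far lower, with 102 to 182 TPM for macrophages, 6.04 to 6.37 for endothelium (Tie1 was at 0), 72.5 to 90.8 for epithelium and 364 to 474 for skeletal muscle. Muscle markers were higher with PEDF in both experiments (364 to 395 and 432 to 474 TPM), endothelial markers lower (6.37 to 6.16 and 6.20 to 6.04), and macrophage (182 to 178 and 102 to 148) and epithelial markers (90.8 to 86.4 and 72.5 to 73.9) went opposite ways. The part of any of these markers in the results below was not tested. Fewer cells of a type and less RNA per cell cannot be told apart in these bulk libraries.

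The sense intronic transcripts took a very small part of each library, and that part was smaller in the PEDF library of both experiments. The 49 members had 1145 counts in control and 1010 in PEDF-treated MEFs of experiment 1, which were 0.00778% (95% Wilson interval 0.00734 to 0.00824) and 0.00657% (0.00618 to 0.00699) of the library. In experiment 2 they had 1500 and 1257 counts, or 0.00827% (0.00786 to 0.00870) and 0.00707% (0.00669 to 0.00747). Both PEDF libraries were thus below both control libraries. Intervals here and below cover counting error only and leave out the variation between cultures. Reads without molecular identifiers are not independent molecules, so the intervals can be too narrow even for counting error.

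**Figure D1:**
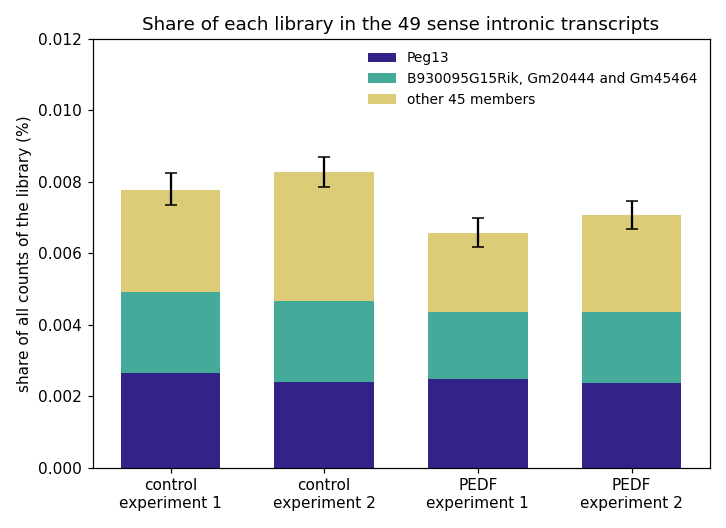
Percent of all counts of a library (vertical axis, from 0) that fell in the 49 sense intronic transcripts, for control and PEDF-treated MEFs of each experiment. Colours divide each bar into Peg13, the next 3 members by level and the other 45, and the black bars are 95% Wilson intervals of the total; the Peg13 segment is of similar height in all 4 libraries while the other 45 members take less of each PEDF library than of its control.

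Expressed as CPM (counts per 1000000 counts of the library, after scaling by TMM factors), the members summed to 80.8 ± 4.60 in control and 67.8 ± 3.94 in PEDF-treated MEFs (SD, n = 2 each). The log2 ratio of PEDF to control was -0.26 in experiment 1 (95% counting interval -0.38 to -0.13) and -0.25 in experiment 2 (-0.36 to -0.14). No p-value is given for this sum. Peg13 alone made up 28.9% to 37.9% of the members' counts and showed log2 ratios of -0.09 (-0.30 to 0.11) and -0.05 (-0.24 to 0.15), both intervals including 0. Without Peg13, the summed log2 ratio was -0.35 in both experiments (-0.50 to -0.19 and -0.48 to -0.21). The 45 members outside the top 4 had ratios of -0.37 (-0.58 to -0.17) and -0.45 (-0.62 to -0.27).

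Most members were scarce. The median member had 29 counts in all 4 libraries together, against 775.5 for the 19384 genes tested, and 16 members had 50 counts or more. A count of 3 corresponded to between 0.168 and 0.203 CPM in a library. At least 1 count was present in every library for 42 members. On the TPM scale, the median of the members' means was 1.36 (range 0.123 to 35.8), and 30 of them were above 1 TPM.

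Without a covariate, the quasi-likelihood test of edgeR found that 4 members had lower levels (Gm44200, B930095G15Rik, Gm42664 and Gm37963) and 1 a higher level (Gm26984) with PEDF at an unadjusted p under 0.05. Over all genes tested, 3.66% were lower and 3.22% higher by this rule. After Benjamini-Hochberg adjustment over all genes no member passed 0.05 (the smallest adjusted p was 0.464), and 0.00516% of genes did, which was 1 gene. When the libraries of 1 experiment were compared with each other, by a block for the experiment, 2 members passed an adjusted p of 0.05, Gm44200 and B930095G15Rik, while 3.75% of genes did. DESeq2 without a block gave no member an adjusted p under 0.05 (0.0115% of genes) and only Gm44200 and B930095G15Rik an unadjusted one (1.46% of genes), with Gm42664, Gm37963 and Gm26984 above 0.05. Gm44200 and Gm26984 reached the minimum of 10 counts through the condition where they were high, so the choice of members favoured both of these differences.

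More members were lower with PEDF than passed a test. The log2 fold change was below 0 for 37 of 49 members, where 49.8% of all genes tested were below 0, and the members' median was -0.276 against 0.00118. With 1 library left out this median was -0.47 without control library 1, -0.18 without control library 2, -0.37 without PEDF library 1 and -0.57 without PEDF library 2. Among the 16 members with at least 50 counts 13 were below 0 (median -0.177), and among the 33 below that level 24 were (median -0.448). All genes tested with fewer than 50 counts had a median of -0.057, with 54.8% below 0. The medians of other noncoding classes were -0.022 for 1340 antisense genes, -0.056 for 532 lincRNA genes and 0.088 for 5 sense overlapping genes. These counts and medians are descriptions of members that were chosen on their reads and carry no test.

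Within experiments, 20 members were lower with PEDF in both, 3 were higher in both and 26 went opposite ways by CPM, 3 of them (Gm43031, 4933425D22Rik and Gm44982) with equal counts in experiment 2. Of all genes tested, 28.8% were lower and 30.1% higher in both. Both PEDF libraries were below both control libraries for 18 members, against 18.4% of genes, and above them for 3, against 18.9%. The 3 were Gm15513, Gm26984 and Gm49733, and in experiment 2 Gm49733 had 3 counts in either library. For these 4 with equal counts the direction in experiment 2 rests on the scaling. Gm15513 and Gm26984 held only 15 and 13 counts in total.

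**Figure D2:**
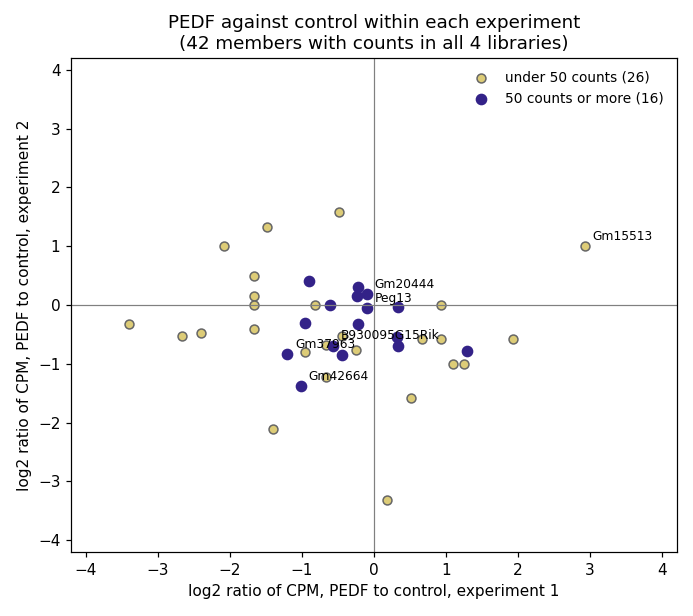
Log2 ratio of CPM of PEDF-treated to control MEFs in experiment 1 (horizontal axis) and in experiment 2 (vertical axis), one point for each of the 42 members with counts in all 4 libraries; dark points had 50 counts or more and pale points fewer. Among the points, 17 lie below 0 on both axes and 2 above 0 on both, and dark points lie closer to 0 than many pale ones.

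Of the 4 members with the most reads, 3 overlapped between conditions (Peg13, Gm20444 and Gm45464). Peg13 (ENSMUSG00000106847; chr15:72805600-72810324, minus strand, a single exon of 4725 bases) lay in intron 17 of the longest, 18-exon transcript of Trappc9, which encodes a subunit of a vesicle-tethering complex. In experiment 1 it had 26.3 CPM in control and 24.6 with PEDF, and in experiment 2 it had 24.3 and 23.5 CPM. The conditions overlapped, with a log2 fold change of -0.07 (SE 0.11, edgeR adjusted p = 0.922), and that of Trappc9 was -0.18 (SE 0.09, adjusted p = 0.743).

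Gm20444 (chr9:44107301-44108879, minus strand) was the highest member per length, with 35.8 TPM, and lay within the span of Rnf26, a RING finger ubiquitin ligase gene. Its CPM was 8.54 and 7.57 in control and 7.98 and 8.64 in PEDF-treated MEFs, with no order between conditions (log2 fold change 0.05, SE 0.17, adjusted p = 0.967). All 648 exonic bases of Gm20444 were also covered, on the opposite strand, by exons of Mfrp and C1qtnf5, which had 18 and 0 counts in all libraries. The strand setting of the counting was not given in the sources used here, so the strand of these reads is uncertain.

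Gm45464 (chr8:91113762-91116671, minus strand) lay within Aktip, which encodes an AKT-interacting protein, and 892 of its 2844 exonic bases were shared with exons of Rbl2 on the opposite strand. It had 4.40 and 3.76 CPM in control and 3.73 and 4.15 CPM in PEDF-treated MEFs (log2 fold change -0.04, SE 0.24). Gm43031, in intron 45 of the scaffold protein gene Akap9, had 2.17 and 2.02 CPM in control and 1.42 and 2.02 in PEDF-treated MEFs, equal in experiment 2 (-0.27, SE 0.35). Akap9 itself had a log2 fold change of -0.21 (SE 0.09), with an adjusted p of 0.696 without and 0.0303 with the block, a call that was lost when the trend with gene length was removed in the blocked fit (-0.0637, adjusted p = 0.789).

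Gm15708, within Bri3, which encodes a small membrane protein, was lower in both PEDF libraries by less than its error, at 2.03 and 1.91 CPM in control and 1.74 and 1.52 in PEDF-treated MEFs (-0.28, SE 0.35). Gm17491 and Gm29170 had libraries that disagreed within a condition. Gm17491, in intron 1 of the phosphate transporter gene Slc20a2, had 1.56 and 1.57 CPM in control but 0.836 and 2.08 in PEDF-treated MEFs. Gm29170, in intron 1 of the deubiquitinase gene Uchl5, had 0.813 and 2.07 CPM in control and 1.03 and 2.02 in PEDF-treated MEFs, so that it differed between experiments more than between conditions.

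**Figure D3:**
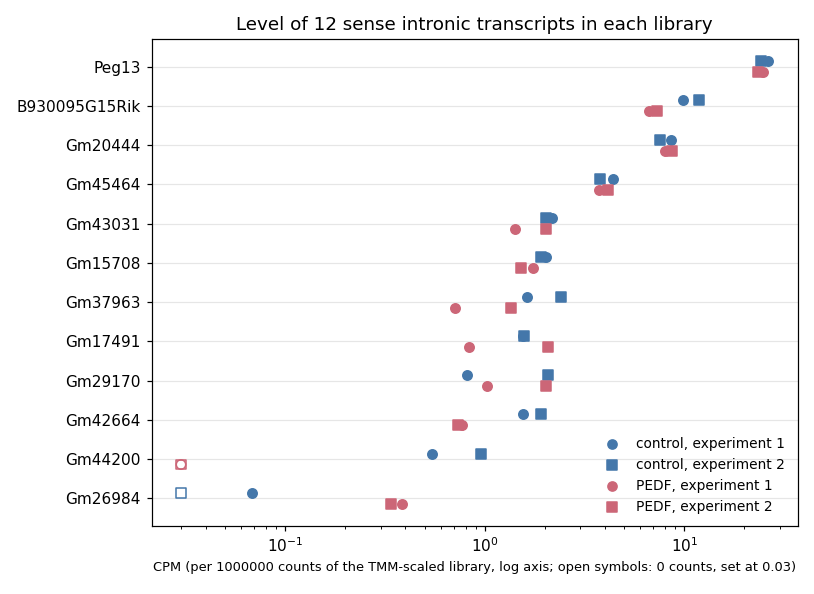
CPM on a log axis for 12 sense intronic transcripts in each library, with control in blue, PEDF in red, circles for experiment 1 and squares for experiment 2; open symbols mark 0 counts and are set at 0.03. The red symbols of B930095G15Rik, Gm15708, Gm37963, Gm42664 and Gm44200 lie left of all blue ones and those of Gm26984 right of them, while the symbols of Peg13, Gm20444 and Gm45464 mix.

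B930095G15Rik was the most abundant of the 5 members with an unadjusted p under 0.05, and it was lower with PEDF. It lies at chr14:121248706-121253971 on the plus strand (ENSMUSG00000085133, 2 exons of 4715 bases) in intron 13 of the 27-exon transcript of Farp1, which encodes a FERM-domain guanine nucleotide exchange factor. It had 145 and 210 counts in control and 103 and 130 in PEDF-treated MEFs, or 9.83 and 11.8 CPM against 6.63 and 7.30 CPM. Both PEDF libraries were below both control libraries, and the counting intervals of the log2 ratio left out 0 in each experiment, at -0.57 (-0.95 to -0.19) and -0.69 (-1.02 to -0.37).

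The log2 fold change of B930095G15Rik by edgeR was -0.64 (SE 0.17) with an unadjusted p of 0.00211, which did not pass adjustment over all genes (adjusted p = 0.626) and passed with the block (adjusted p = 0.00522). DESeq2 with the block gave an unadjusted p of 0.0494 and no adjusted p. Its host Farp1 had 3671 and 4824 counts in control and 3727 and 4360 in PEDF-treated MEFs, with a log2 fold change of -0.10 (SE 0.07, adjusted p = 0.793). No exon of another gene overlapped those of B930095G15Rik.

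Gm44200 was read in control MEFs alone. It lies at chr6:113607475-113611527 on the plus strand (ENSMUSG00000107937, 2 exons of 662 bases) in the first intron of Brk1, which encodes a subunit of the WAVE actin-regulatory complex. It had 8 and 17 counts in control and 0 and 0 in PEDF-treated MEFs. Against a floor of 3 counts in each PEDF library, 0.181 CPM on average, its level of 0.748 ± 0.291 CPM in control (SD, n = 2) made it at least 4.14-fold lower with PEDF.

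The unadjusted p of Gm44200 was 5.03e-04 (edgeR), the adjusted p was 0.464 without and 0.00365 with the block. DESeq2 with the block gave Gm44200 an unadjusted p of 0.152 and no adjusted p. It passed the minimum of 10 counts through control MEFs alone, and it stands in the study's own list of changed genes, which was chosen on these libraries, so its direction is not independent evidence. Brk1 had 1222 and 1281 counts in control and 1341 and 1414 in PEDF-treated MEFs (log2 fold change 0.10, SE 0.09, adjusted p = 0.833). The exons of Gm44200 shared 31 bases with the antisense gene Gm44199, which had 6 and 13 counts in control and 5 and 6 in PEDF-treated MEFs.

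Gm42664 (chr3:119743208-119746446, minus strand, 1 exon of 3239 bases) lay in intron 7 of Ptbp2, which encodes a polypyrimidine tract-binding splicing regulator. Its 23 and 34 counts in control and 12 and 13 in PEDF-treated MEFs did not overlap, and the log2 fold change was -1.21 (SE 0.44) with an unadjusted p of 0.0144 and an adjusted p of 0.696 by edgeR. With the block its adjusted p was 0.141, and the unadjusted p was 0.0906 without control library 2 and 0.0528 without PEDF library 2. Ptbp2 had a log2 fold change of -0.11 (SE 0.09).

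Gm37963 (chr9:108389082-108390205, plus strand, 2 exons of 613 bases) lay in intron 20 of Usp4, which encodes a deubiquitinase. It had 1.63 and 2.41 CPM in control and 0.708 and 1.35 in PEDF-treated MEFs. The groups did not overlap, and the log2 fold change of -0.96 (SE 0.42) had an unadjusted p of 0.0378 and an adjusted p of 0.712 by edgeR, or 0.189 with the block. The unadjusted p rose above 0.05 without control library 2 (-0.64, p of 0.253) or PEDF library 1 (-0.59, p of 0.241), and the value was -1.51 without PEDF library 2. Usp4 had a log2 fold change of 0.02 (SE 0.07).

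Gm26984 (chr3:79673367-79676876, minus strand, 1 exon of 3510 bases) lay in intron 5 of Rxfp1, which encodes a relaxin receptor. It had 1 and 0 counts in control and 6 and 6 in PEDF-treated MEFs, a pooled ratio of 11.7 with a counting interval from 1.74 to 501. Its p was 0.0258 and its adjusted p 0.696 (edgeR), or 0.248 with the block, and without control library 2 the unadjusted p was 0.136. The fitted log2 fold change was 3.26, and it was 5.65 without control library 1 and 2.29 without control library 2. It passed the minimum of 10 counts through the PEDF libraries, where it was high, so its difference is given as a description. Rxfp1 was scarce as well, with 12 and 28 counts in control and 16 and 31 in PEDF-treated MEFs.

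All 49 members lay within the span of a gene on the same strand, and for 48 this was a protein-coding gene. They fell in 46 different host genes, of which Bri3, Ngly1 and Capza1 held more than 1 member. None shared a base with an annotated exon of its host. For 42 members the whole span fit in 1 intron of the host's longest transcript, 12 of them in the first intron, and 24 members had a single exon. Their exonic length had a median of 1476 bases (233 to 4755), compared with 976.5 for the sense intronic transcripts under the minimum. Their median GC content was 45.1% (28.3% to 62.6%).

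Hosts of members were more abundant than hosts of the transcripts under the minimum, with a median of 17.7 against 7.33 TPM, a comparison given without a test because the members were chosen on their reads. Of the members, 34 had a host above 10 TPM. A member reached a median of 4.84% of the TPM of its host, with 30 of 46 members under 10% and 14 between 10% and 100%. Only Peg13, at 129%, and Gm20444, at 207%, were above their host.

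**Figure D4:**
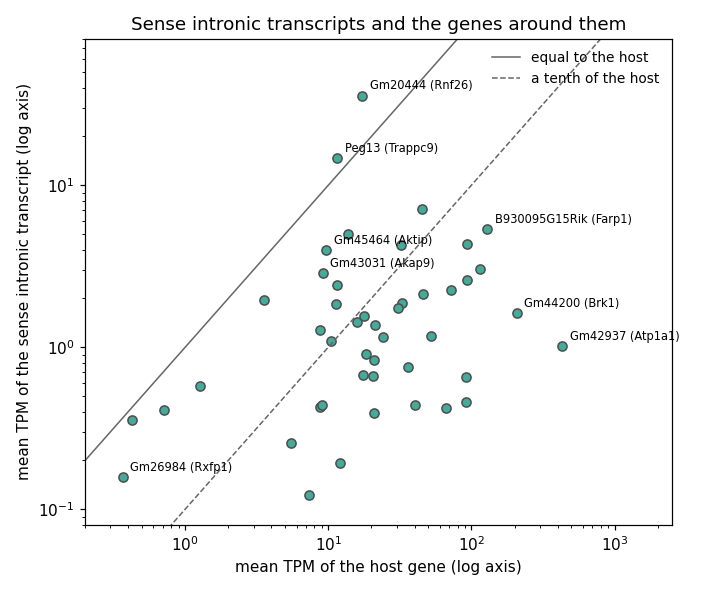
Mean TPM over the 4 libraries of each sense intronic transcript (vertical axis, log) against that of the gene around it (horizontal axis, log) for the 46 members whose host had reads. The solid line marks equal levels and the dashed line a member at 10% of its host; Gm20444 and Peg13 lie above the solid line and 30 members lie below the dashed one.

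Across the 46 members, log2 TPM of member and host had a Pearson r of 0.35, a description over points that share libraries. For the other 3 members, the gene taken as host had no reads, namely Gm20537 around Gm28229, Gm49317 around Gm28119 and Gm49354 around Gm48194. Gm48194 also lay within Tut7, a terminal uridylyltransferase gene with 4500 counts in all (log2 fold change -0.08, SE 0.08). Gm28119 also lay within Mir100hg, the host transcript of a microRNA cluster, and 77 of its 298 exonic bases were those of Mir125b-1. Gm28119 had 9 and 21 counts in control and 6 and 9 in PEDF-treated MEFs (log2 ratios of -0.66 and -1.22, adjusted p = 0.764), while Mir100hg had a log2 fold change of -0.53 (SE 0.31, adjusted p = 0.798, with the block 9.47e-16).

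The 43 host genes tested had a median log2 fold change of -0.023, from -0.33 to 0.63. The highest value was that of Tex26 (SE 0.93), which had only 21 counts in all, and no other host exceeded 0.5 in size. Of them, 19 (44.2%) were lower and 13 (30.2%) higher with PEDF in both experiments, compared with 40.8% and 6.12% of members and 28.8% and 30.1% of all genes. By edgeR 3 hosts were lower and 2 higher at an unadjusted p under 0.05, where 3.66% and 3.22% of all genes were. None passed adjustment without the block. With it, where 3.75% of all genes passed, 3 were lower, namely Akap9, Rbbp6 (-0.19) and Zmiz1 (-0.18), and 1 was higher, Rap1a (0.25). With the trend with gene length also removed, none of these 4 passed, at adjusted p-values of 0.789, 0.567, 0.496 and 0.175. The log2 fold changes of member and host were both below 0 for 18 of 46 members, and 16 members were below 0 with a host above 0. Their Pearson r was 0.27 over the 15 members with at least 50 counts and -0.06 over all 46, a description with no test.

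Long noncoding RNAs listed as nuclear were compared beside the members, and their part in the result was not tested. Where these RNAs lay in the MEFs was not measured, and the annotation labels Tug1 protein-coding. All 10 listed (Malat1, Neat1, Meg3, Rian, Mirg, Kcnq1ot1, Airn, Miat, Tug1 and Pvt1) had log2 fold changes below 0 (49.8% of all genes), with a median of -0.215, and 7 were lower in both experiments (28.8% of all genes). Those of Tug1 (-0.017), Pvt1 (-0.017), Miat (-0.060), Rian (-0.067) and Mirg (-0.10) were smaller in size than their SE. Malat1 had a log2 fold change of -0.65 (SE 0.08) and an adjusted p of 0.0167 without the block, and no other gene of the table passed there. With the block 3 of the 10 passed (3.75% of all genes), Malat1, Neat1 and Meg3, and Neat1 no longer did once the length trend was removed (adjusted p = 0.0931). The list was drawn up with earlier results of these data known. Together the 10 made up 0.173% and 0.201% of the control libraries and 0.141% and 0.169% of the PEDF libraries.

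Exons of another gene overlapped those of 9 members, on the opposite strand for 7 and on the same strand for 2. Without these 9 the summed log2 ratio of PEDF to control was -0.30, an alternative added after the values were seen.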

How the data were processed

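Polyadenylated RNA of 2 control and 2 PEDF-treated MEF cultures was sequenced from directional libraries. According to the submitters' processing notes and the study's methods, the authors used FastQC 0.11.7, Trimmomatic 0.38, HISAT2 2.1.0 (mm10), SAMtools 1.9 and featureCounts 1.6.3 on uniquely mapped reads. The annotation and strand setting are not given in the sources used here, and neither is the conversion to TPM. The authors deposited raw counts per gene and TPM values, 1 column for each library. The study's text gives another passage than the sample labels, which were followed.

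The counts of the 19384 genes that reached 10 in all were tested with edgeR 4.0.16 under R 4.3.3 (TMM factors, robust quasi-likelihood test, p-values adjusted by Benjamini-Hochberg), without a covariate, as the study names none. The labels pair libraries by experiment, with separate embryos for each. Across 10722 well-expressed genes, which are no replicates, the experiments differed alike in both conditions (r = 0.423), and a second fit took the experiment as a block. DESeq2 1.42.0, limma 3.58.1 on log2(TPM + 1) and log2(TPM + 0.1), RLE factors, other filters, removal of a trend with gene length (natural spline, 5 degrees of freedom) and leaving out each library were the alternatives. The fits were tested on simulated data.

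The coordinates of all 49 members equalled those of GENCODE M21, from which hosts, introns and sequences were taken. The host is the gene on the same strand whose span contains the member. The named members are the 10 with the highest mean CPM, those with an unadjusted p under 0.05 or an adjusted p under 0.05 with or without the block, and Gm44200, each with its host. Of these, 1 member and its host are not reported here but enter the counts of results. Other genes named, such as Gm15513, Gm49733, Gm28119, Mir100hg, Rap1a, Rbbp6 and Zmiz1, were chosen after their values were seen. Members and lists were chosen with earlier results of these data known. Shares have Wilson intervals, and ratios of counts within an experiment have exact conditional intervals, both at 95%. A gene without counts in a condition was set against a floor of 3 counts.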

Additional observations from a re-analysis of the deposited data

How the results depend on the processing

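Each condition had 2 libraries, and p-values measure only the spread between libraries, which the tests estimate in part from all genes together. With the block, that spread is how the PEDF difference varied between the experiments. At a median of 29 counts, a change in a single member is detectable only if large. The count of 5 members with an unadjusted p under 0.05 became 2 with DESeq2, 1 with the replicate block in DESeq2, 3 with filterByExpr, 11 with limma on log2(TPM + 1) and 8 on log2(TPM + 0.1), and ran from 3 to 7 when 1 library was left out, with 3 without control library 2. The share of all genes that passed there was 6.88% in the comparison reported, 1.46%, 1.66%, 7.20%, 4.97% and 4.76% in these 5 in turn, 14.6% with the block in edgeR and 11.7% with the length trend removed there (5 of 49 members, 10.2%, in both), and 3.39% to 12.8% with 1 library left out. The count of 0 members after adjustment became 1 without a filter on low counts and 2 with the replicate block, with or without the length trend removed, where 0.405%, 3.75% and 2.16% of all genes passed. It ran from 0 to 2 with 1 library left out, the 2 arising without control library 1, where 1.71% of all genes passed. An adjusted count could not be had from DESeq2 with the block, which gave no member an adjusted p. The filterByExpr setting kept only 22 members, so its count of 3 is out of 22 and not of 49.

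The summed log2 ratio of -0.25 stayed below 0 under every alternative run: -0.34 on TPM, -0.25 with all 328 sense intronic rows, -0.21 with a minimum of 50 counts, -0.35 without Peg13, -0.23 with raw library totals, -0.30 without overlapping members, and -0.31 to -0.20 with 1 library left out. The members' share of scaled libraries, 0.00808% in control and 0.00678% with PEDF, became 0.0151% and 0.0119% on TPM, 0.00859% and 0.00722% with all rows, 0.00679% and 0.00588% with a minimum of 50 counts, and 0.00556% and 0.00437% without Peg13. With that minimum, 7 of 16 members were lower and 0 higher in both experiments, against 29.2% and 31.6% of all genes with that minimum.

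Over the log2 fold changes of the named members and hosts, 287 alternative values kept their direction and side of an adjusted p of 0.05, 22 from DESeq2 with the block kept their direction and had no adjusted p, 8 passed the threshold and 19 changed sign. Gm20444 was -0.0348 with the block and length trend, Slc20a2 was 0.00322 there, and Usp4 was -0.00316 and -0.00321 with limma. With 1 library left out, the ranges were -0.0378 to 0.14 for Gm20444, -0.16 to 0.0720 for Gm45464, -0.90 to 0.41 for Gm17491, -0.51 to 0.92 for Gm29170, -0.00515 to 0.15 for Aktip, -0.0278 to 0.0687 for Usp4, -0.0738 to 0.0301 for Slc20a2, -0.0201 to 0.23 for Uchl5, -0.000969 to 0.20 for Brk1 and -0.23 to 0.77 for Rxfp1. The cause was not tested. The replicate block changed no other call of a named member than those of Gm44200 and B930095G15Rik.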
